A study of Mus musculus with 12 samples.

Results

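The immediate early and AP-1 genes described here are 10 genes, taken by symbol from a table of 23988 genes of mouse jejunum: Egr1, Fos, Fosb, Fosl1, Jun, Junb, Atf3, Ier2, Ier3 and Dusp1. All 10 were in the table, and all 10 passed the filter used for testing, at least 1 fpm in 3 or more of the 12 libraries. The study sequenced total RNA of whole jejunum from adult mice in 4 groups of 3 libraries. DKO mice were Rab11aL/L, Rab11b-/-, VillinCreER+, so both RAB11 GTPases of recycling endosomes were targeted. AKO mice were Rab11aL/L, VillinCreER+ and BKO mice were Rab11b-/-, and the WT group carried neither loss. All 4 groups had received tamoxifen at 40 mg/kg, and jejunum was collected 2 days later. The villin promoter restricts this tamoxifen-activated Cre to the intestinal epithelium, whereas the Rab11b genotype covers every cell, and the labels do not state whether WT and BKO mice carried Cre or the floxed allele. Loss of Rab11a and the presence of active Cre therefore cannot be told apart in any comparison of DKO or AKO with BKO or WT. The labels number the samples without stating that each is a different animal, so the tests rest on the variation among these libraries, which may be partly technical.

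Immediate early genes are transcribed within minutes of a growth factor or stress signal, from transcription factors that are already in the cell, and their mRNAs are short-lived. FOS and JUN proteins pair through leucine zippers to form the transcription factor AP-1, which binds the sequence TGANTCA, and ATF3 pairs with JUN proteins as well. DUSP1, a phosphatase, removes the activating phosphates from p38, JNK and ERK kinases and so limits the same signal that induces it. In the intestine these genes are known to respond to growth factors, to injury and to inflammation.

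In DKO against WT, 8 of the 10 genes rose and 0 fell (Egr1, Ier3, Dusp1, Fosl1, Atf3, Junb, Fos and Ier2), while Fosb and Jun did not pass the test. The call was an adjusted p under 0.05 (limma, two-sided, Benjamini-Hochberg over the 13675 genes tested). The background was high: 14.6% of all genes tested passed as higher in DKO and 17.2% as lower. In AKO against WT 0 of the 10 were called, and in BKO against WT 0 of the 10.

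Promoter windows of 250 bases before the annotated start were used for 7 of the 10 genes (Fos, Fosb, Jun, Junb, Atf3, Ier3 and Dusp1, RefSeq, build GRCm38.p6), and Ier2, Fosl1 and Egr1 are named only. A filter by chromosome was applied to members and not to all promoter windows, so a gene named only may still have a window. The 4 windows printed are those of the genes that rose in DKO and hold the half-site TGACG of the cAMP response element (CRE), through which CREB and ATF proteins are known to act on early genes. Each reads 5′ to 3′ along the gene's strand and ends at the base before the start. Capitals mark TGACG on either strand (CGTCA where it lies on the other strand), the full element TGACGTCA, and TATAAA. They cover chr17:26508473-26508722 (minus strand) for Dusp1, chr12:85473640-85473889 (plus strand) for Fos, chr8:84978749-84978998 (minus strand) for Junb and chr1:191183334-191183583 (minus strand) for Atf3.
Dusp1: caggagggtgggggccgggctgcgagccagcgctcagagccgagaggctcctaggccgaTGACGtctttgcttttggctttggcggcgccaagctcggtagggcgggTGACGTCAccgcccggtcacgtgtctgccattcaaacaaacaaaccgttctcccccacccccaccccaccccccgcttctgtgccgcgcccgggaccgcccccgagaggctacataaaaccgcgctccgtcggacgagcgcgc
Fos: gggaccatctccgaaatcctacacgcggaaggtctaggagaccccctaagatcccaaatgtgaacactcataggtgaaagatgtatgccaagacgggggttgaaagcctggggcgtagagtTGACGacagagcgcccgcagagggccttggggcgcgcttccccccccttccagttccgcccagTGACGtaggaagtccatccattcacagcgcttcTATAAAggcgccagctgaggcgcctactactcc
Junb: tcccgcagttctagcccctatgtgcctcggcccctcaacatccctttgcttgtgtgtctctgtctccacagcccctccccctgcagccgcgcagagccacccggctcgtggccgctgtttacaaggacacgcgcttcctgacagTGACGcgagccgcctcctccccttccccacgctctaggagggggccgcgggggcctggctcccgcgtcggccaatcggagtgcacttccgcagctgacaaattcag
Atf3: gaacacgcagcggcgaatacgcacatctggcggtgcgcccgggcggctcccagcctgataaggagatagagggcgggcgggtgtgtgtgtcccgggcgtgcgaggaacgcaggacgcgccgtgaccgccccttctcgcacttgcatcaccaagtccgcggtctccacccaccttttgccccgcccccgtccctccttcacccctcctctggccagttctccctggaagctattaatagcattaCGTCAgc

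The Dusp1 window held the full CRE, 143 to 136 bases before the start, and a further half-site from 191 to 187. The full element is its own reverse complement, so it counts as a half-site on both strands. Fos held half-sites from 129 to 125 and from 66 to 62 and a TATA box from 33 to 28 bases before the start. Junb held 1 half-site from 106 to 102, and Atf3 held 1 on the opposite strand from 7 to 3. The window of Ier3, which also rose in DKO, and that of Jun held no match to any motif sought. Over both strands, TGACG stood in 5 of the 7 windows (also in that of Fosb, which was not called) and in 17.8% of 32851 promoter windows of the same length. The full CRE stood in 1 of the 7 and in 1.55% of all windows, and TATAAA in 1 of the 7 and in 12.4%. The AP-1 site TGANTCA stood in 0 of the 7 and in 6.75% of all windows, the CArG box, bound by serum response factor, in 0 of the 7 and in 1.47%, and the EGR site GCGNGGGCG in 1 of the 7 (Fosb) and in 4.70%. A match describes letters in the window and not a bound site. An absent match does not speak for bases outside the 250, nor for Ier2, Fosl1 and Egr1, for which no window was used.

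Values are the deposited fpm, fragment counts divided by 1 factor per library, so they compare 1 gene between libraries and not levels between genes of different length. Where groups are said not to overlap, or to lie above or below others, the share of all genes with such a gap was not counted. Such gaps describe these libraries only. Libraries held 19.2 M to 29.8 M reads in all, so that 3 reads of a gene corresponded to 0.0939 to 0.169 fpm. Rab11b averaged 22.9 ± 1.55 fpm in DKO, 112 ± 6.67 in AKO, 27.0 ± 4.23 in BKO and 116 ± 5.07 in WT (SD, n = 3 each). Rab11a averaged 106 ± 8.48 fpm in DKO, 59.4 ± 9.43 in AKO, 230.0 ± 39.7 in BKO and 186 ± 3.87 in WT, so both genes were low where the labels say. BKO replicate 3 stood apart from the other BKO libraries. It lay nearer to DKO than they did for Fosl1, Atf3, Egr1, Ier2 and Ier3. Among the members, it lay inside the range of DKO only for Atf3, and for Fosb and Jun it lay farther from DKO than the other BKO libraries. Several results that involve BKO, but not all, are therefore given with and without it. Xist was high in 3 of 3 DKO, 1 of 3 AKO, 2 of 3 BKO and 1 of 3 WT libraries, so the groups were not balanced for it.

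Among the FOS family, Fosl1 (FRA-1, which lacks the strong activating domain of FOS) was close to undetected outside DKO and BKO replicate 3. It measured 5.72, 7.72 and 10.6 fpm in DKO, 0.219, 0.195 and 0.219 fpm in AKO, 0.464, 0.282 and 4.11 fpm in BKO, and 0.0815, 0.256 and 0 fpm in WT. These were 118, 204 and 231 reads in DKO and 2, 7 and 0 reads in WT. The DKO libraries lay above all other libraries, and the only one between was BKO replicate 3. The fitted change in DKO against WT was 2.99 ± 0.43 on the log2 scale (SE, adjusted p = 0.00106, limma). Fits are on log2 of the value plus 1, which understates the change of so low a gene, and on recovered reads edgeR gave 6.13 and DESeq2 6.16. Fosl1 passed the filter only through 4 libraries, the 3 of DKO and BKO replicate 3, so its rise is not independent of the filter. Of the other 9 genes, which passed in all 12 libraries, 7 were called higher.

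Fos, the partner of JUN proteins in the classical AP-1 dimer, measured 247, 161 and 188 fpm in DKO, 99.2, 107 and 96.9 fpm in AKO, 106, 185 and 131 fpm in BKO, and 54.5, 145 and 76.8 fpm in WT. DKO did not overlap WT or AKO but overlapped BKO, and WT replicate 2 lay close to the lowest DKO library. The change in DKO against WT was 1.19 ± 0.32 (log2, SE, adjusted p = 0.0164, limma). It missed the threshold without DKO replicate 1 (adjusted p = 0.0592, limma), without WT replicate 1 (0.0621) and without WT replicate 3 (0.0560).

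Fosb, a close relative of Fos, was low and scattered. It measured 6.11, 1.85 and 5.03 fpm in DKO, 2.50, 5.02 and 3.16 fpm in AKO, 5.43, 4.11 and 14.5 fpm in BKO, and 3.75, 3.84 and 1.31 fpm in WT. DKO overlapped every other group, and the highest library was BKO replicate 3. The DKO change against WT was 0.40 ± 0.48 (log2, SE, adjusted p = 0.539, limma), with an interval of -0.65 to 1.45, and it was -0.32 when libraries were weighted by quality.

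Of the JUN family, Junb passed the test in DKO and Jun did not. Junb, which in many settings opposes JUN, measured 214, 204 and 188 fpm in DKO, 82.5, 78.0 and 56.4 fpm in AKO, 79.2, 112 and 123 fpm in BKO, and 94.6, 80.8 and 78.0 fpm in WT. Every DKO library lay above every other library. The Junb change in DKO against WT was 1.25 ± 0.18 (log2, SE, adjusted p = 0.0011, limma).

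Jun itself measured 88.8, 73.4 and 73.1 fpm in DKO, 88.2, 105 and 102 fpm in AKO, 94.8, 113 and 41.4 fpm in BKO, and 95.2, 93.7 and 114 fpm in WT. The 3 DKO libraries lay just below WT without overlap, and the lowest library of all was BKO replicate 3. The DKO change against WT was -0.36 ± 0.29 (log2, SE, adjusted p = 0.363, limma). Each gene has 1 spread for all groups, and without BKO replicate 3 the same change of -0.36 was called lower (adjusted p = 0.0337, limma).

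Atf3, a stress-induced repressor of the ATF family, measured 133, 71.3 and 159 fpm in DKO, 37.9, 43.6 and 48.1 fpm in AKO, 43.5, 53.4 and 106 fpm in BKO, and 36.9, 41.8 and 27.5 fpm in WT. DKO lay above AKO and WT, and the BKO libraries lay above WT with replicate 3 inside the range of DKO. The change in DKO against WT was 1.69 ± 0.35 (log2, SE, adjusted p = 0.00521, limma).

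Egr1, a zinc finger transcription factor induced by ERK signalling, measured 155, 106 and 133 fpm in DKO, 19.7, 12.2 and 19.1 fpm in AKO, 21.8, 32.7 and 45.6 fpm in BKO, and 14.3, 29.8 and 22.2 fpm in WT. The lowest DKO library, at 106 fpm, lay far above the highest of the other libraries, at 45.6 fpm. The mean in DKO was 5.94 times that in WT, and the fitted change was 2.56 ± 0.31 (log2, SE, adjusted p = 0.000524, limma). Of all tested genes, 0.921% had a larger rise.

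Ier3, a short protein linked to cell survival under stress, measured 24.3, 29.2 and 28.7 fpm in DKO, 4.51, 6.11 and 5.13 fpm in AKO, 4.31, 6.93 and 11.7 fpm in BKO, and 4.97, 3.95 and 4.78 fpm in WT. DKO again lay above all others, at 6.0 times the WT mean, with a fitted change of 2.35 ± 0.26 (log2, SE, adjusted p = 0.000359, limma). Ier2, a nuclear protein of the same name series but not the same family, moved least among the called genes. It measured 74.3, 77.6 and 88.9 fpm in DKO, 45.3, 42.0 and 40.4 fpm in AKO, 53.1, 56.6 and 70.4 fpm in BKO, and 52.8, 48.6 and 46.9 fpm in WT. DKO lay above all others, with BKO replicate 3 the nearest to it. The Ier2 change in DKO against WT was 0.68 ± 0.12 (log2, SE, adjusted p = 0.00294, limma), and 13.3% of all tested genes had a larger rise.

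Dusp1, the feedback phosphatase, gave the smallest p of the 10 genes. It measured 38.2, 31.0 and 47.1 fpm in DKO, 6.70, 7.66 and 6.10 fpm in AKO, 6.31, 6.08 and 9.65 fpm in BKO, and 8.36, 6.80 and 9.97 fpm in WT. BKO replicate 3 lay within the WT range here, unlike for Fosl1, Atf3 and Ier3. The DKO mean was 4.63 times that of WT, and the fitted change was 2.08 ± 0.21 (log2, SE, adjusted p = 0.000242, limma).

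**Figure D1:**
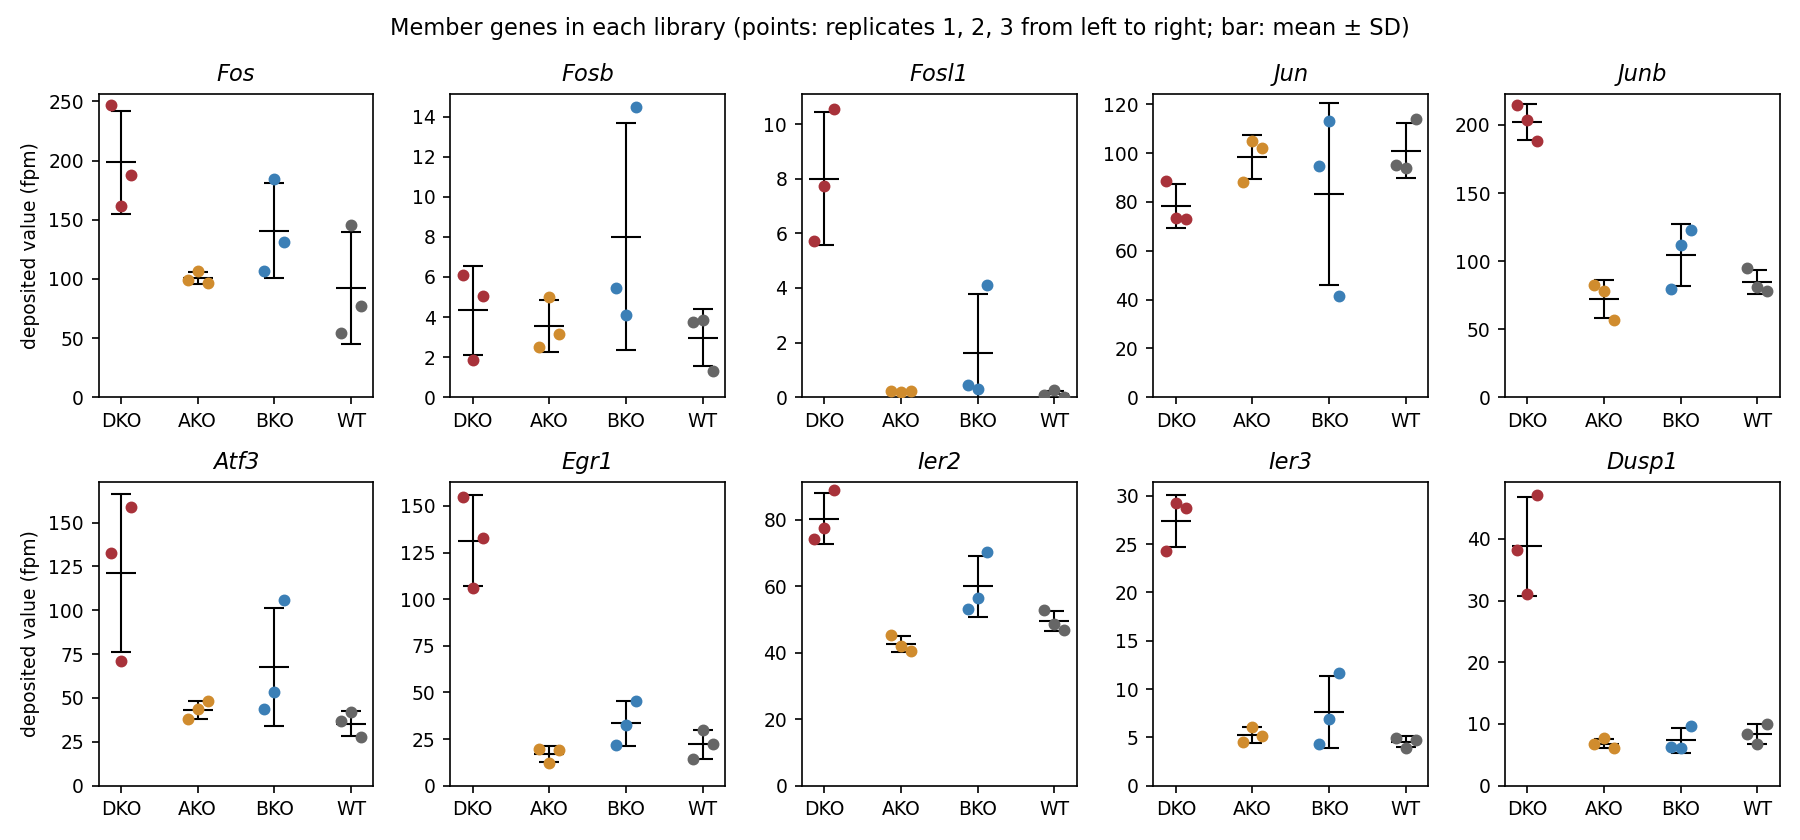
Deposited values (fpm, linear axes from 0) of the 10 genes in each library, with DKO, AKO, BKO and WT from left to right, a point for each library and the mean with its SD as bars. For Fosl1, Junb, Egr1, Ier2, Ier3 and Dusp1 all 3 DKO points lie above every other point, while Fos, Fosb, Jun and Atf3 show no such gap. The share of all genes with such a gap was not counted, and Fosl1 passed the filter only through DKO and BKO replicate 3.

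**Figure D2:**
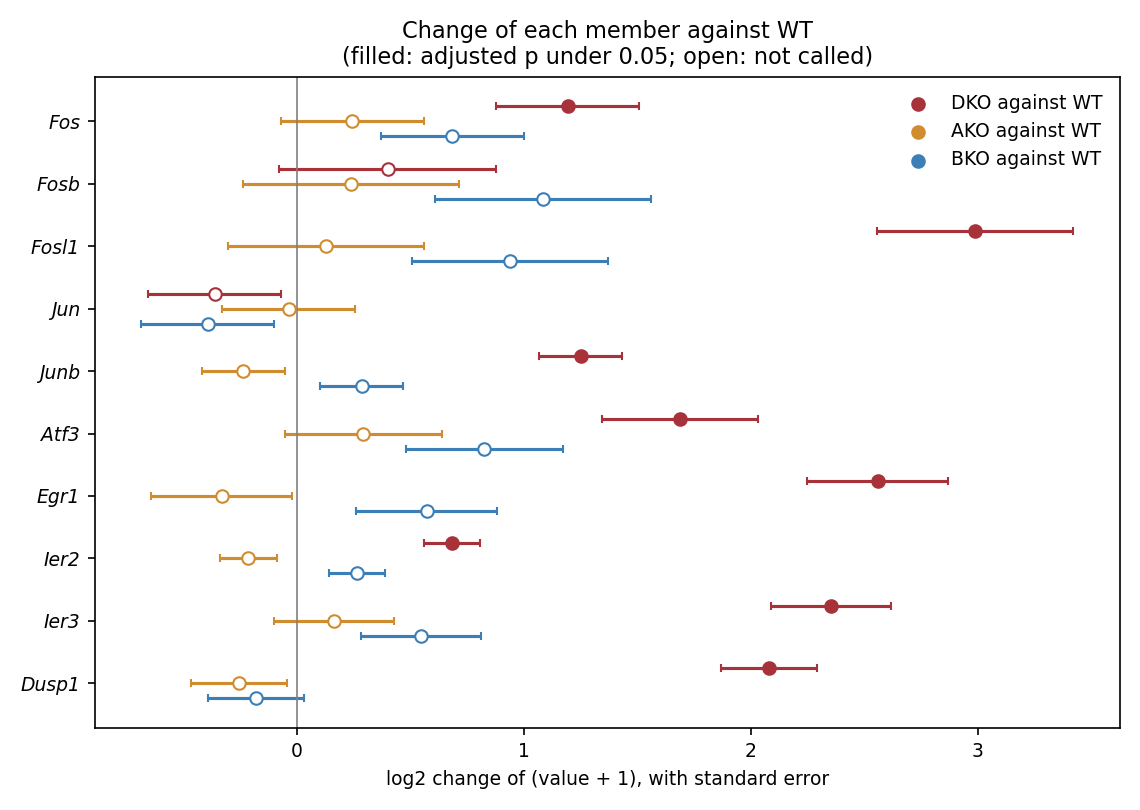
Log2 change of the value plus 1 against WT with its standard error, for DKO, AKO and BKO, with filled points where the adjusted p was under 0.05. The filled points are the 8 called genes in DKO, from 0.68 for Ier2 to 2.99 for Fosl1, and no point of AKO or BKO is filled.

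AKO and BKO against WT ask what each single loss changes. In AKO against WT the 10 changes lay between -0.33 (Egr1) and 0.29 (Atf3) on the log2 scale, and the adjusted p was 1 for each (limma). The call rate over all genes was 0.00731%, and an unadjusted p under 0.05 was reached by 0 of the 10 and by 0.995% of all genes, so this comparison made few calls for any gene. edgeR and DESeq2 called 0 of the 10 as well. The widest interval was that of Fosb, from -0.81 to 1.29, and the narrowest that of Ier2, from -0.49 to 0.06. The 3 AKO values of Ier2 lay below the 3 of WT without overlap, with a change of -0.21 ± 0.12 (SE).

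In BKO against WT 0 of the 10 were called, at adjusted p from 0.44 to 0.80 (limma), and over all genes 0.0439% were. The largest changes were those of Fosb at 1.09 ± 0.48, Fosl1 at 0.94 ± 0.43 and Atf3 at 0.83 ± 0.35 (log2, SE). An unadjusted p under 0.05 was reached by 2 of the 10, Fosb and Atf3, against 10.7% of all genes. edgeR called 0 of the 10 with 5 at an unadjusted p under 0.05, and DESeq2 called 1, Fosl1.

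A large part of these BKO differences lay in BKO replicate 3. Its value was 11.0 times the mean of the other BKO libraries for Fosl1, 3.04 times for Fosb, 2.18 times for Atf3 and 2.08 times for Ier3, but 0.398 times for Jun. Without it the changes in BKO against WT were 0.31 for Fosl1, 0.61 for Fosb, 0.45 for Atf3, 0.23 for Ier3 and 0.04 for Jun, and 0 of the 10 were called. The same library had a summed level of 5041 fpm over 12 heat shock genes, against 2421 to 2997 fpm in DKO and 1491 to 2301 fpm in WT. It had 8.84 fpm over 8 T and NK cell markers and 17.2 fpm over 7 B and plasma cell markers, where WT held 246.5 to 286 fpm and 1804 to 1945 fpm. The part of these features in its member values was not tested.

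**Figure D3:**
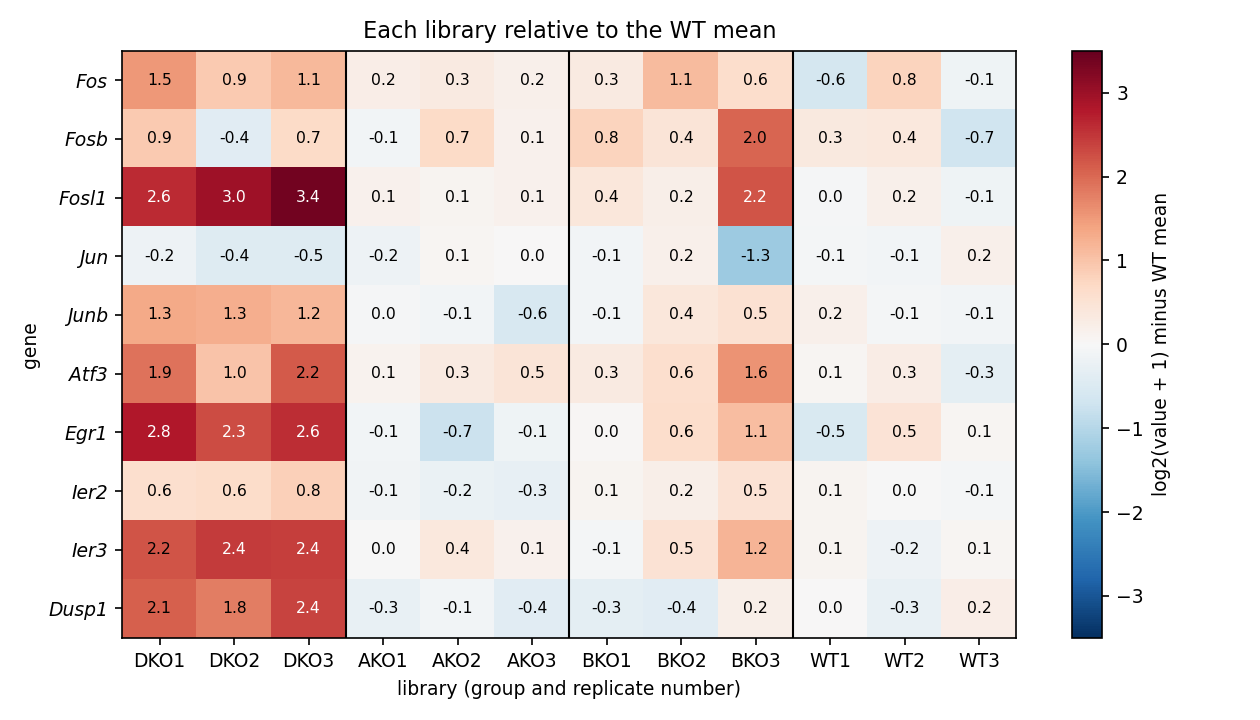
Log2 of the value plus 1 minus the WT mean for each gene (down) and library (across, DKO, AKO, BKO and WT), with the difference printed in each cell. The median over the 10 genes was 1.71, 1.14 and 1.65 in the DKO libraries, 0.85 in BKO replicate 3, 0.43 in BKO replicate 2 and between -0.09 and 0.09 in the other 7 libraries.

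DKO against AKO adds the Rab11b null genotype to the Rab11a deletion. The 8 genes called against WT were also higher here and 0 were lower, with 15.3% of all genes called higher. Both comparisons share the DKO libraries. The changes were 2.89 ± 0.31 for Egr1, 2.86 ± 0.43 for Fosl1, 2.33 ± 0.21 for Dusp1 and 2.19 ± 0.26 for Ier3 (log2, SE). Junb changed by 1.49 ± 0.18, Atf3 by 1.40 ± 0.35, Fos by 0.95 ± 0.32 and Ier2 by 0.90 ± 0.12. The adjusted p-values lay between 0.000148 and 0.0411 (limma), the highest for Fos, which missed the threshold in 7 of the 12 fits that left out 1 library. Rab11a was higher in DKO than in AKO in every library, so their Rab11a levels were not matched.

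DKO against BKO sets the Rab11aL/L, VillinCreER+ genotype on the Rab11b null background against that background alone. Of the 10 genes 6 rose, with 11.0% of all genes called higher. They were Dusp1 (2.26 ± 0.21), Fosl1 (2.05 ± 0.43), Egr1 (1.99 ± 0.31), Ier3 (1.80 ± 0.26), Junb (0.96 ± 0.18) and Ier2 (0.42 ± 0.12; log2, SE, adjusted p from 0.0003 to 0.0334, limma). Atf3 differed by 0.86 ± 0.35 (adjusted p = 0.0956) and Fos by 0.51 ± 0.32 (adjusted p = 0.265), and both overlapped between the groups. Without BKO replicate 3, 8 of the 10 were called: Atf3 rose by 1.23 (adjusted p = 0.00622, limma) and Jun fell by 0.40 (adjusted p = 0.0337). Fosl1 missed the threshold with edgeR (adjusted p = 0.0831), with edgeR without a filter and with only these groups in the limma fit (adjusted p up to 0.105 over these 3). Ier2 missed it without BKO replicate 1, BKO replicate 2, DKO replicate 2 or DKO replicate 3 (adjusted p from 0.0751 to 0.132, limma). Ier2 also missed it with the replicate block (limma), with edgeR without a filter and with only these groups in the limma fit (adjusted p up to 0.159).

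Whether the DKO change exceeded the sum of both single changes was tested as an interaction, DKO minus AKO minus BKO plus WT on the log2 scale. It was called for 4 of the 10 genes, all positive, with 2.08% of all genes called positive. Dusp1 changed by 2.08 in DKO against -0.25 in AKO and -0.18 in BKO, an interaction of 2.51 ± 0.30 (SE, adjusted p = 0.00633, limma). The interaction was 2.32 ± 0.44 for Egr1 (adjusted p = 0.0229), 1.64 ± 0.37 for Ier3 (0.0424) and 1.20 ± 0.26 for Junb (0.0361). Fosl1, at 1.92 ± 0.61 (0.0916), and Ier2, at 0.63 ± 0.18 (0.0665), did not pass with all libraries and did without BKO replicate 3, when 6 of the 10 were called.

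The DKO change was 1.69 for Atf3, where the single changes summed to 1.12, and 1.19 for Fos, where they summed to 0.93. Their interactions of 0.57 ± 0.49 and 0.26 ± 0.45 (SE) did not pass. Dusp1 kept its call whichever single library was left out. Egr1 kept it in 4 of 12 such fits and Ier3 and Junb in 1 of 12 each, the one without BKO replicate 3.

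**Figure D4:**
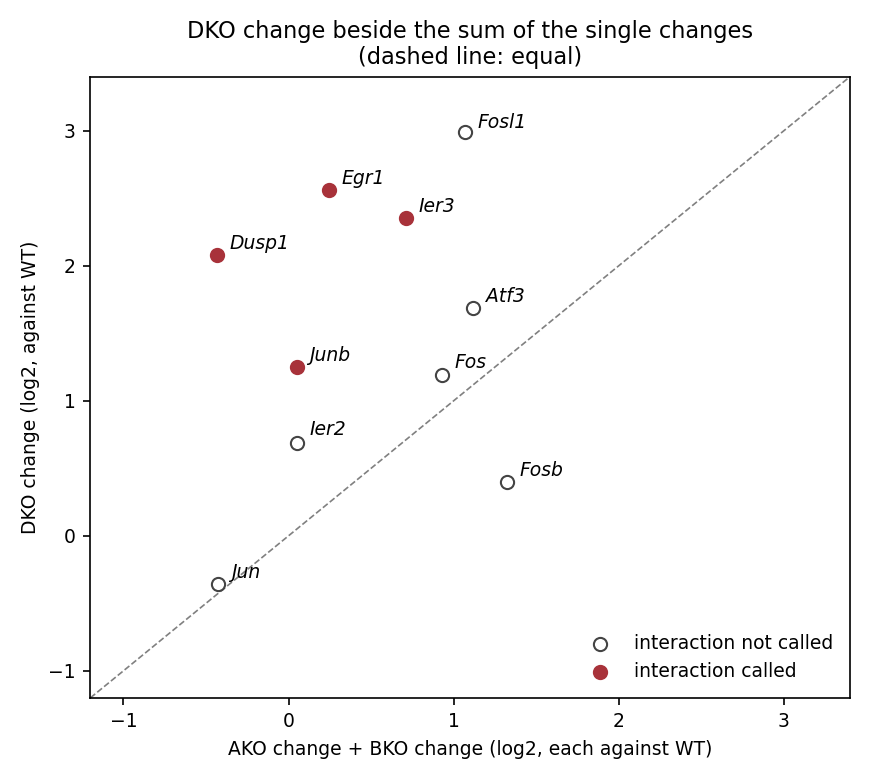
DKO change against WT (vertical, log2) beside the sum of the AKO and BKO changes against WT (horizontal, log2) for the 10 genes, with a dashed line where both are equal and filled points where the interaction was called. Dusp1, Egr1, Ier3 and Junb are filled and lie above the line. Fosl1, Ier2 and Atf3 are open and also lie above it, while Fos and Jun lie near it and Fosb below it.

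For each gene list that follows, the shares over all genes in DKO against WT were 14.6% higher and 17.2% lower. Of other immediate early genes, a list of 44, 42 were tested. In DKO against WT 22 rose and 1 fell, with a median log2 change of 0.74 where the median of all genes was -0.01, and leaving out 1 library gave 16 (without WT replicate 1) to 24 that rose and 1 to 3 (without BKO replicate 3) that fell. Egr2 passed the filter only through DKO and was not called. Ctgf, a secreted matrix-associated protein, measured 31.4, 39.6 and 23.5 fpm in DKO and 6.11, 3.04 and 4.81 fpm in WT (2.53 ± 0.27, log2, SE, adjusted p = 0.000269, limma). Cebpd, a transcription factor of the acute phase response, averaged 39.1 ± 9.97 fpm in DKO and 7.42 ± 0.91 fpm in WT (SD, n = 3 each), and Plk2, a stress-responsive kinase, 25.9 ± 3.36 fpm in DKO and 4.81 ± 0.64 fpm in WT. The gene that fell was Klf4, a zinc finger factor of differentiated epithelial cells, at 153 ± 35 fpm in DKO and 328 ± 39.2 fpm in WT (adjusted p = 0.00325, limma).

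The list of MAP kinase feedback genes holds phosphatases and inhibitors that act at the receptor and RAS. Many of them, like Dusp1, but not all, are known to be induced by the signal they limit. Of 17 tested, 13 rose and 0 fell, with a median of 1.5, and leaving out 1 library gave 11 to 14. The 13 include Spred3, which passed the filter only through DKO. Dusp3, a dual-specificity phosphatase, measured 70.0, 66.9 and 58.4 fpm in DKO and 21.0, 21.6 and 23.9 fpm in WT (1.51 ± 0.12, log2, SE, adjusted p = 6.36e-05, limma). Spry1, which dampens receptor tyrosine kinase signalling, averaged 22.3 ± 4.79 fpm in DKO and 7.13 ± 0.51 fpm in WT, and Dusp10, a phosphatase of p38 and JNK, 41.3 ± 7.99 fpm in DKO and 10.7 ± 1.28 fpm in WT.

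Of 22 kinases and factors upstream of these genes, 4 rose and 3 fell, with a median of 0.02, where 14.6% of all genes rose and 17.2% fell, so the list was near the background. Mapk8 (JNK1) averaged 54.7 ± 8.58 fpm in DKO and 35 ± 2.8 fpm in WT, whereas Mapk9 (JNK2) averaged 28.9 ± 1.31 fpm in DKO and 42.0 ± 1.14 fpm in WT. Map2k2 and Map2k4, which encode MAP kinase kinases, rose by 0.55 ± 0.16 and 0.34 ± 0.11, and Mapk3 (ERK1) fell by 0.52 (log2, adjusted p from 0.0272 to 0.0362, limma). The count of those that rose was 6 without BKO replicate 3, 2 without AKO replicate 3 or DKO replicate 3, 1 without DKO replicate 1, DKO replicate 2 or WT replicate 2, and 0 without WT replicate 1 or 3.

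Of 13 other AP-1 and related leucine zipper genes, 3 rose (Mafk, Atf4 and Atf5) and 1 fell (Maf), with a median of 0.11. Over all genes 14.6% rose and 17.2% fell, so this list too was not far from the background. Atf4, the effector of the integrated stress response, averaged 305 ± 35.5 fpm in DKO and 170 ± 7.90 fpm in WT (adjusted p = 0.00574, limma), and Mafk, a small MAF protein, 109 ± 5.58 fpm in DKO and 73.5 ± 7.66 fpm in WT. Maf, a large MAF factor, averaged 141 ± 18.0 fpm in DKO and 391 ± 46.4 fpm in WT (adjusted p = 0.0313), a call lost without any 1 DKO or WT library, and without BKO replicate 2 or 3 the genes that fell were 2.

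Textbook target genes of AP-1 had the highest median of these lists. Of 12 tested, 9 rose and 1 fell, with a median of 2.08. Plau, the urokinase protease, measured 37.0, 32.8 and 42.1 fpm in DKO and 3.71, 3.15 and 4.05 fpm in WT (3.05 ± 0.28, log2, SE, adjusted p = 0.000142, limma). Hmox1, the heme-degrading stress enzyme, averaged 15.4 ± 2.63 fpm in DKO and 1.68 ± 0.76 fpm in WT. Mmp3, a matrix metalloprotease, averaged 8.31 ± 1.89 fpm in DKO and 0.237 ± 0.042 fpm in WT and passed the filter only through DKO. Ccnd1, cyclin D1, fell, at 107 ± 24.9 fpm in DKO and 209 ± 21.5 fpm in WT (adjusted p = 0.0152, limma), a call lost without DKO replicate 1 or WT replicate 1.

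Of 12 heat shock genes, which respond to protein damage, 4 rose and 0 fell in DKO against WT, with a median of 0.72, where 14.6% of all genes rose. Hspb1 averaged 38.1 ± 11.8 fpm in DKO and 7.43 ± 2.19 fpm in WT (adjusted p = 0.000903, limma), Hsp90aa1 447 ± 58.8 fpm in DKO and 208 ± 41.1 fpm in WT, and Bag3 64.8 ± 16.5 fpm in DKO and 36.2 ± 3.07 fpm in WT. The count of those that rose was 7 without BKO replicate 3, 2 without DKO replicate 3 and 1 without DKO replicate 2 or WT replicate 3. In AKO and BKO against WT, 0 genes of any of these 6 lists were called, where 0.00731% and 0.0439% of all genes were. At an unadjusted p under 0.05 (limma) AKO had 0 to 3 per list, against 0.995% of all genes. BKO had 8 of 42 other immediate early genes, 6 of 17 feedback genes and 3 of 12 AP-1 target genes, against 10.7% of all genes. It had 3 of 22 upstream kinases and factors, 2 of 13 other AP-1 genes and 2 of 12 heat shock genes. All these BKO counts include BKO replicate 3 and are not given without it.

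**Figure D5:**
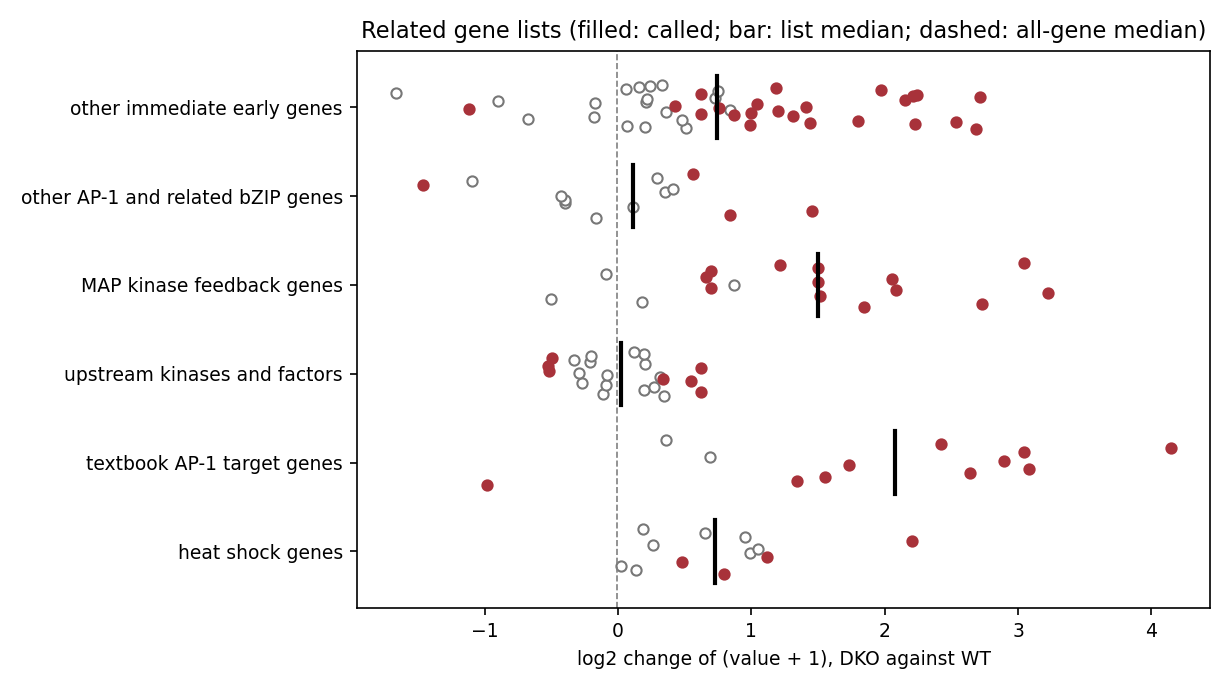
Log2 change of the value plus 1 in DKO against WT for each tested gene of 6 related lists, filled where called, with a bar at the list median and a dashed line at the median of all genes. The medians are 2.08 for AP-1 target genes, 1.5 for MAP kinase feedback genes, 0.74 for other immediate early genes and 0.72 for heat shock genes, against 0.11 for other AP-1 genes and 0.02 for upstream kinases.

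Markers of cell types moved with the DKO group as well, where 14.6% of all genes rose and 17.2% fell. In bulk tissue, fewer cells of a type and less RNA per cell cannot be told apart. All 7 fibroblast markers rose in DKO against WT, and their sum was 730.0 to 1178 fpm in DKO and 232 to 334 fpm in WT, with Dcn at 257 ± 22.7 fpm in DKO and 78.1 ± 7.99 fpm in WT. Of 10 enterocyte markers tested 6 fell, with a sum of 7298 to 9334 fpm in DKO and 18740 to 20965 fpm in WT, so enterocyte transcripts were present in every group. Of 8 T and NK cell markers 4 fell (sum 23.4 to 57.4 fpm in DKO, 246.5 to 286 fpm in WT), and 7 and 8 fell without BKO replicate 2 and 3, but 0 to 2 without any 1 of the AKO, DKO or WT libraries. Of 7 macrophage markers 3 rose, Mrc1, Cd68 and C1qb (sum 264 to 297 fpm in DKO, 112 to 144 fpm in WT), and 1 without DKO replicate 2, DKO replicate 3 or WT replicate 3. Mrc1 alone averaged 103 ± 9.25 fpm in DKO and 8.60 ± 1.5 fpm in WT, while Csf1r, C1qa and C1qc, with changes of 0.15, 0.51 and 0.51 (log2), were not called.

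Of 7 endothelial markers 1 rose, Esam (sum 43.4 to 60.5 fpm in DKO, 28.2 to 43.4 fpm in WT), a share near the 14.6% of all genes that rose. Of 8 smooth muscle, 6 B and plasma cell, 3 red blood cell and 7 dividing cell markers tested, 0 were called with all libraries (limma). At an unadjusted p under 0.05 these 4 lists held 1, 2, 0 and 1 genes, and edgeR called 0, 3, 0 and 0 and DESeq2 1, 3, 0 and 0. Without BKO replicate 3, 1 smooth muscle and 1 dividing cell marker were called higher and 3 B and plasma cell markers lower. The only neutrophil marker that passed the filter, Csf3r, averaged 2.07 ± 0.76 fpm in DKO and 0.66 ± 0.22 fpm in WT and passed only through DKO. Of 3 distal intestine genes, Fabp6 fell, at 924 ± 185 fpm in DKO and 8483 ± 2457 fpm in WT, while Car1, which passed the filter only through DKO, was at 3.12 ± 1.80 fpm in DKO and 0.13 ± 0.22 fpm in WT. The part of these cell type differences in the rise of the immediate early genes was not tested.

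With Xist state as a term in the fit, the same 8 genes were called in DKO against WT, with changes from 0.74 for Ier2 to 3.43 for Fosl1 (log2). Against the 1 WT library with high Xist, the DKO mean was higher by 3.10 for Egr1, 2.25 for Ier3, 2.07 for Dusp1 and 1.09 for Junb on the same scale, a comparison chosen after seeing the data that has no test.

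The genes whose profile over the 12 libraries was most like that of a member were listed by Pearson's r of log2 of the value plus 1. These r describe libraries that share groups and scaling, and the DKO libraries lie apart, so a like change in DKO is enough for a high r. The closest to Fosl1 were Galnt3 (r = 0.992) and Anxa1 (r = 0.990), to Ier3 Tm4sf1 (r = 0.992) and Epb4.1l5 (r = 0.989), and to Dusp1 Sprr2h (r = 0.987) and Trim10 (r = 0.979). Sprr2h averaged 4.50 fpm in DKO and 0.023 fpm in WT, and Trim10 2.91 fpm in DKO and 0.035 fpm in WT. Both were close to undetected in WT, so they may have passed the filter only through DKO. Egr1 was closest to Cdc42se1 (r = 0.983) and Nabp1 (r = 0.981), Ier2 to Aprt (r = 0.979) and Ppp4c (r = 0.976), Junb to Lsr (r = 0.970) and Ip6k2 (r = 0.969), and Atf3 to Errfi1 (r = 0.961), a feedback inhibitor of EGFR, and Ccnc (r = 0.958).

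The members that were less tied to the DKO group had other neighbours. Jun was closest to Rgs2 (r = 0.964) and Pcmtd1 (r = 0.959), Fosb was close to the heat shock gene Dnajb1 (r = 0.879), and Fos was closest to Ppp1r14c (r = 0.914) and Sik1 (r = 0.895). Of these 5 genes, 0 were called in DKO against WT (adjusted p from 0.0736 to 0.486, limma).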

How the data were processed

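The deposited signal values of 23988 genes are the authors' fragment counts divided by 1 factor per library: every value (100%) came out as a whole number of reads, to within 0.001, once divided by its library's smallest step. These reads were used with edgeR and DESeq2, which called 4145 and 5142 genes in DKO against WT where limma called 4348. Per the submitters' processing notes, FastQC 0.11.3, Trimmomatic 0.36 and DESeq2 were used with build mm9. The tool that counted reads and its annotation were not given in the sources used here, and the kit does not mark the strand, so overlapping genes cannot be separated. The planned test, limma 3.58.1 on log2(value + 1) with trended variance, all 12 libraries and 1 coefficient per group, was kept although reads could be recovered, and p-values were adjusted over 13675 genes. edgeR 4.0.16 and DESeq2 1.42.0 were alternatives, with other pseudocounts, filters, scalings, weights and left-out libraries, and the fit was tested on simulated data. Errors of means are SD and errors of changes are SE, and reads cover counting error only. The members, lists and tests were chosen with earlier results of these data known. All 10 members are given, and from each list up to 3 called genes per direction with the smallest p in DKO against WT, or 2 with the highest mean where none was called, except that some genes so chosen are not reported here. No column lacked a sample (0 of 12).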

Additional observations from a re-analysis of the deposited data

Results flagged for a closer look

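For 4 genes the difference between mice with and without the Rab11aL/L, VillinCreER+ genotype was not the same on the Rab11b null and the Rab11b intact background, by the interaction test of the difference itself (limma, adjusted over all genes). Dusp1 differed by 2.26 with Rab11b absent (DKO against BKO) and by -0.25 with it present (AKO against WT), a difference of 2.51 on the log2 scale (adjusted p = 0.00633). For Egr1 the changes were 1.99 with Rab11b absent and -0.33 with it present, a difference of 2.32 (adjusted p = 0.0229). For Ier3 they were 1.80 with it absent and 0.16 with it present, a difference of 1.64 (adjusted p = 0.0424). For Junb they were 0.96 with it absent and -0.24 with it present, a difference of 1.20 (adjusted p = 0.0361). The call held in 25 of the 25 alternatives run for Dusp1, 17 for Egr1, 13 for Junb and 9 for Ier3. Ier3 missed the threshold with edgeR (adjusted p = 0.059), with a pseudocount of 0.1 (0.0535, limma), with no filter (0.0539, limma) and with the replicate block (0.0502, limma).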

How the results depend on the processing

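The 8 genes higher in DKO against WT were called under each of the pseudocounts, filters, scalings, count tests, the Xist term and the replicate block. Leaving out 1 library gave 7 to 9 called genes in DKO against WT and also against AKO, 5 to 8 against BKO, 0 in either single loss against WT, and 1 to 6 in the interaction. The interaction called 2 of the 10 genes with the replicate block (Dusp1 and Egr1) and 6 with quality weights, and DESeq2 called 1 in BKO against WT. Same-numbered libraries showed little sign of pairing (r of their deviations from -0.30 to 0.18 over 18 pairs, 6 of which correlated best with their own number). Those 6 include the AKO and BKO pairs, at r of 0.07, 0.18 and 0.10, and so few libraries cannot exclude pairing. The block changed no other call of a member except Ier2 in DKO against BKO (adjusted p = 0.0513, limma).

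None of the changes that turned direction was called with all libraries, and the cause was not tested. With quality weights Egr1 in AKO against WT was 0.03, Jun in BKO against WT 0.04, and Fosb -0.32 in DKO against WT and -0.35 in DKO against AKO. With these weights DKO against BKO gave -0.11 for Fos and -0.47 for Jun, and the interaction gave -0.61 for Fos and -0.39 for Jun. Scaled to total reads, Jun in AKO against WT was 0.01. Jun in DKO against BKO was -0.12 with the Xist term, -0.08 with edgeR and with DESeq2, -0.10 with edgeR without a filter, and -0.40 without BKO replicate 3 and WT replicate 2 together. Its interaction was -0.08, -0.06, -0.05, -0.07 and -0.32 with the Xist term, edgeR, DESeq2, edgeR without a filter and without both libraries, where that of Fos was -0.15. Leaving out 1 library gave, in AKO against WT, -0.07 to 0.63 for Fos, -0.11 to 0.42 for Fosb and -0.08 to 0.06 for Jun. It gave -0.67 to 0.04 for Jun in BKO against WT, -0.10 to 0.56 for Fosb in DKO against AKO and -0.40 to 0.31 for Jun in DKO against BKO. In the interaction it gave -0.12 to 0.58 for Fos and -0.37 to 0.35 for Jun.

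Counts over all genes moved more. The interaction called 541 genes, against 4752 with quality weights, 1749 with DESeq2, 1701 with the Xist term, 352 with edgeR, 329 with the replicate block, 3428 without BKO replicate 3 and WT replicate 2, and 94 to 4181 without 1 library (4181 without BKO replicate 3). DKO against BKO called 3144, against 6134 with quality weights, 699 with only these groups in the fit, 6193 without both libraries and 1631 to 6224 without 1. DKO against WT called 4348, against 9655 with quality weights and 2691 to 6153 without 1 library, and DKO against AKO 4410, against 9368 and 2782 to 6203. BKO against WT called 6, against 252 with DESeq2, 50 with quality weights, 2 with only these groups, 3 with the stricter filter or the block, and 3 to 9 without 1 library. AKO against WT called 1, against 4 with quality weights, 3 with DESeq2, 2 without a filter and 0 with only these groups. The interaction needs all 4 groups, so it has no value with only the groups compared. Fosl1, with 9 reads over the WT libraries, is limited by depth.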
